A study of Homo sapiens with 12 samples.

Results

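The response to SMN knockdown was read for 10 genes of the neuronal microtubule cytoskeleton: the 4 stathmins (STMN1, STMN2, STMN3 and STMN4), tau (MAPT) and MAP2, the 2 large MAP1 proteins (MAP1A and MAP1B), and doublecortin (DCX) with its kinase relative DCLK1. They were chosen by name as proteins that bind tubulin or the microtubule lattice, and each name was looked up in both deposited tables of genes. All 10 genes were found in both, under 12 Ensembl identifiers in each, because MAPT has 3. There are 16406 identifiers in the iMN table and 19016 in that of the i3Ns, with 16093 in both. RNA was taken after 12 days from human neurons that carried either a scrambled shRNA (SCR) or an shRNA against SMN1 and SMN2 (SMN-KD), delivered by lentivirus. The iMNs were motor neurons from 1 iPSC line with Td-Tomato under the HB9 promoter, isolated by fluorescence sorting. The i3Ns were neurons made by inducible NGN2 in the H1 embryonic stem cell line, which the labels call cortical. Each of the 4 groups had 3 libraries, 12 in all. Cell type, stem cell line and differentiation method changed together and cannot be told apart, and nothing in the labels says that the libraries of a group came from separate cultures.

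Microtubules are polymers of tubulin that grow and shrink at their ends, and an axon is both built on them and supplied along them. Stathmins bind free tubulin dimers and promote disassembly. STMN1 is the widely expressed, soluble form, while STMN2, STMN3 and STMN4 are neuronal forms anchored to membranes, and STMN2 is best known in motor neurons because its transcript is truncated when TDP-43 is lost. Tau, MAP2, MAP1A and MAP1B bind along the lattice and stabilize it, tau mostly in axons and MAP2 mostly in dendrites and cell bodies. MAP1B is the early, growth-associated form and MAP1A the form of mature neurons. DCX and DCLK1 bind between protofilaments in young, migrating and extending neurons.

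The knockdown itself was visible in both tables. The normalized counts of the identifiers named SMN1 or SMN2, 5 in each table and summed because the copies share reads, fell by 77.9% in iMNs and by 82.7% in i3Ns. The cell type labels were set against marker lists. In iMNs 7 of 7 motor neuron markers were listed, with CHAT at a derived SCR mean of 725 normalized counts and LHX3 at 14.0. The same 7 were listed in i3Ns, and there MNX1, the gene of the HB9 promoter, had a derived SCR mean of 2552 normalized counts against 497 in iMNs. ISL1 was likewise higher there, at 15146 against 1523. So were ISL2, at 3133 against 66.3, LHX3, at 239 against 14.0, and CHAT, at 937 against 725 normalized counts. Only the choline transporter SLC5A7 and the vesicular acetylcholine transporter SLC18A3 were higher in iMNs, at 10716 against 3873 and 3499 against 2093 normalized counts. Most markers of this list were thus higher in i3Ns, and they did not all point to one cell type. The glutamatergic markers SLC17A6 and SLC17A7 had derived SCR means of 14027 and 8038 normalized counts in i3Ns, against 737 and 48.5 in iMNs. The 2 tables were normalized separately, so levels in iMNs and i3Ns are given side by side and were not tested.

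The 10 genes were among the strongest transcripts of both cell types. The values are means of counts divided by DESeq2 size factors, and the mean of each group was derived here from the authors' mean over 6 libraries and their fold change, because values of single libraries were not used here. MAP1B had the highest mean normalized count of the whole table in both cell types. DCX was in place 3 in iMNs and 15 in i3Ns, MAP2 in place 14 and 20, and STMN2 in place 19 and 18. The median over all identifiers was 875 in iMNs and 577 in i3Ns, while the derived SCR means of the weakest of the 10 were 11363 (STMN4, iMNs) and 9374 (STMN4, i3Ns), with MAPT summed over its 3 identifiers.

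The places in the whole table and the weakest levels given above rest on counts that were not corrected for transcript length. The order of the genes among themselves was read per kb of the MANE Select transcript, the reference isoform of each gene. On that scale the SCR iMNs ran from STMN2 at 46552 normalized counts per kb, MAP1B at 33749, DCX at 24453 and STMN1 at 19298 down to MAP1A at 4378 and DCLK1 at 3333. MAP2 at 12010 and MAPT at 11688 normalized counts per kb were 2.75% apart, which lies within the spread between libraries, given as a coefficient of variation of 2.21% to 3.69% by the standard errors of the iMN fold changes. All other neighbours in this order were at least 11.8% apart. In SCR i3Ns STMN2 again stood first at 46376 normalized counts per kb and MAP1B stood next at 44110, with STMN2 5.14% above it, followed by STMN1 at 15553 and DCX at 13449. MAP1A closed the order in SCR i3Ns at 1985 normalized counts per kb. After SMN-KD the order in i3Ns changed more than in iMNs. MAP1B passed STMN2, though the 2 were only 4.67% apart after knockdown. STMN4 moved from place 8 to 4, STMN1 dropped from place 3 to 6, and DCLK1 and MAP1A exchanged places 9 and 10. In iMNs the only exchange was between STMN3 and STMN4, whose levels per kb after knockdown were 10.6% apart. These orders carry no test, and a transcript with another 3′ end than the reference isoform would shift them.

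**Figure D1:**
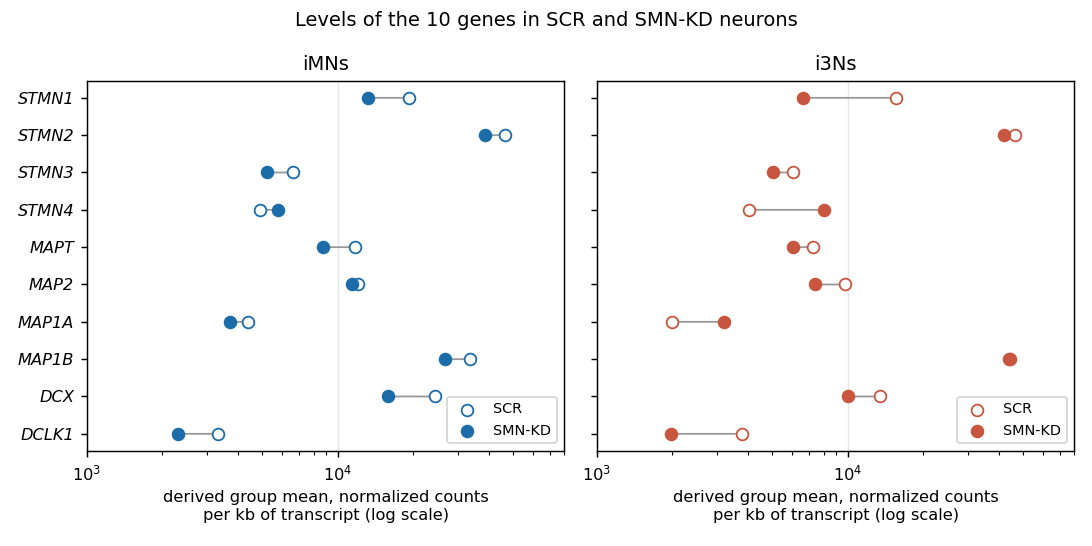
Derived group means of the 10 genes in normalized counts per kb of transcript (log scale), SCR as open and SMN-KD as filled circles, iMNs left and i3Ns right, with MAPT summed over its 3 identifiers. STMN4 and MAP1A lie to the right of their SCR value in i3Ns, and STMN1 and DCLK1 show the longest shifts to the left there.

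With SMN knockdown most of the 10 genes fell modestly in both cell types, and STMN4 and MAP1A rose in i3Ns. By the DESeq2 adjusted p-value under 0.01 alone, 10 of the 12 identifiers fell, 1 rose and 1 was not called in iMNs, against a background of 18.7% of all identifiers that fell and 17.1% that rose. In i3Ns 8 fell, 3 rose and 1 was not called, against 25.7% and 22.8%. Among the 3 rises is the MAPT identifier ENSG00000186868, which held 0.432% of the MAPT counts in i3Ns. The MAPT counts summed over its identifiers fell there by 16.3%. Without MAPT, 8 of 9 genes fell and 1 rose in iMNs, and 6 of 9 fell and 2 rose in i3Ns. Strong transcripts are measured with smaller errors and are called more often: among identifiers with a mean of at least 1000 normalized counts, 28.7% fell and 25.0% rose in iMNs, and 35.3% fell and 35.4% rose in i3Ns. The 3 rises among the 12 identifiers in i3Ns were thus no larger a share than among strong transcripts at large. The median log2 fold change over the 12 identifiers was -0.34 in iMNs and -0.26 in i3Ns, beside 0.00 and 0.01 over all identifiers. The study called a gene differentially expressed (DEG) where the adjusted p was under 0.01 and the log2 fold change was beyond 1 in either direction. By that rule 0 of the 12 were called in iMNs (11 had an unadjusted p under 0.05), where 2.37% of identifiers fell and 0.969% rose as DEGs. In i3Ns 1 was called, STMN1, where 9.53% fell and 4.23% rose. In bulk RNA fewer cells of a type and less RNA per cell cannot be told apart.

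**Figure D2:**
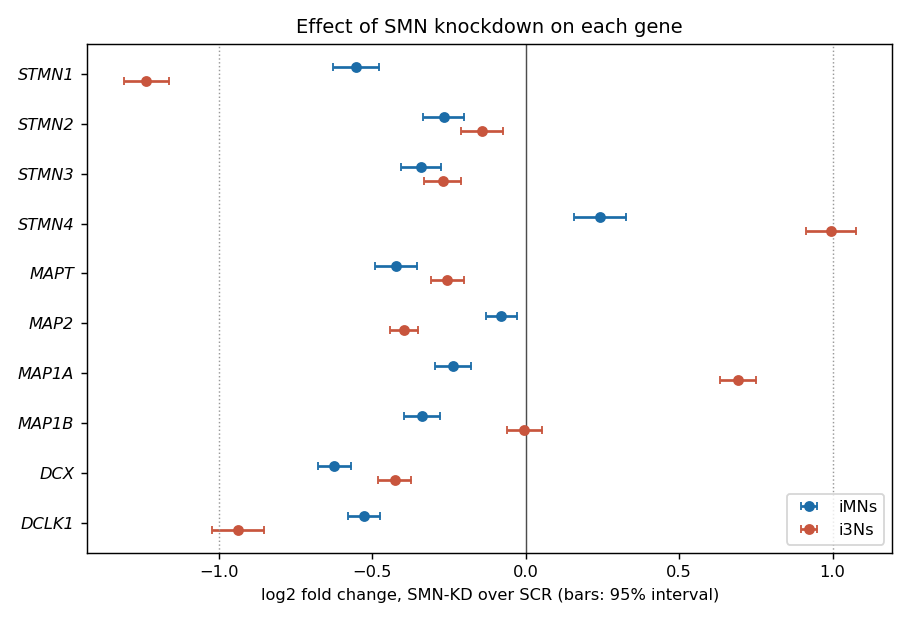
Log2 fold change of each gene, SMN-KD over SCR, in iMNs (blue) and i3Ns (red), with 95% intervals from the authors' standard errors and dotted lines at -1 and 1. Only STMN1 in i3Ns lies wholly beyond a dotted line, and MAP1A lies on opposite sides of 0 in the 2 cell types.

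Among the stathmins, STMN1 fell, STMN4 rose, and STMN2 and STMN3 fell slightly, in both cell types. STMN1 (ENSG00000117632, chromosome 1, 25884181 to 25906991, minus strand, GRCh38) went from a derived mean of 27847 normalized counts in SCR iMNs to 18966 in SMN-KD iMNs. In i3Ns it went from 22442 to 9520 normalized counts. The log2 fold change was -0.55 ± 0.039 (SE, 3 libraries against 3) in iMNs, with a DESeq2 adjusted p of 1.29e-45, and -1.24 ± 0.038 in i3Ns, with a DESeq2 adjusted p of 8.50e-233. This was a loss of 31.9% in iMNs and of 57.6% in i3Ns. Of the 7767 identifiers with a mean of at least 1000 in i3Ns, 4.07% fell by as much or more. Dividing cells also express STMN1, and in i3Ns 11 of 12 proliferation markers fell, from a summed 4953 to 2033 normalized counts, MKI67 among them from 938 to 106. In iMNs 0 of the 8 listed proliferation markers fell and 1 rose, PCNA, MKI67 stood at 26.8 and 29.8 normalized counts, and AURKB, BIRC5, CDK1 and RRM2 were not listed. The part of these cells in the fall of STMN1 in i3Ns was not tested.

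STMN4 (ENSG00000015592, chromosome 8, 27235308 to 27258420, minus strand) moved the other way. Its derived mean was 11363 normalized counts in SCR iMNs and 13443 in SMN-KD iMNs. In i3Ns it was 9374 in SCR and 18678 in SMN-KD, a gain of 99.3%. The log2 fold change in iMNs was 0.24 ± 0.043 (DESeq2 adjusted p = 1.03e-07). In i3Ns it was 0.99 ± 0.041 (DESeq2 adjusted p = 6.70e-126), which falls just short of the DEG threshold, with a 95% interval from 0.91 to 1.08 that includes it. STMN4 was the one gene of the 10 that rose in both cell types.

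STMN2 (ENSG00000104435, chromosome 8, 79611117 to 79666158, plus strand), the most abundant stathmin, changed least of the 4 in i3Ns. Its derived means were 88588 and 73577 normalized counts in SCR and SMN-KD iMNs, and 88253 and 79924 in i3Ns. The losses of 16.9% and 9.44% correspond to log2 fold changes of -0.27 ± 0.034 (DESeq2 adjusted p = 8.69e-15) and -0.14 ± 0.035 (DESeq2 adjusted p = 0.000143). Both passed the test on the adjusted p, and neither came near the threshold of 1. TARDBP, which encodes TDP-43, passed the test in neither cell type: its log2 fold change was 0.12 ± 0.060 in iMNs and -0.04 ± 0.072 in i3Ns, with DESeq2 adjusted p-values of 0.0764 and 0.636. The tables count genes, so a truncated STMN2 transcript cannot be told from the full-length one here. STMN3 (ENSG00000197457, chromosome 20, 63639705 to 63657682, minus strand) fell by 21.1% in iMNs, with 14922 normalized counts in SCR and 11773 in SMN-KD, and by 17.2% in i3Ns, with 13635 and 11296. Its log2 fold changes were -0.34 ± 0.033 and -0.27 ± 0.031, with DESeq2 adjusted p-values of 7.27e-24 and 5.46e-18.

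Within a cell type the stathmins thus moved apart. The log2 fold change of STMN4 exceeded that of STMN1 by 0.80 in iMNs, with a 95% interval from 0.68 to 0.91, and by 2.23 in i3Ns, with an interval from 2.12 to 2.34. These intervals take the errors of the genes as independent, and they carry no test. STMN2 and STMN3 stayed close, with a difference of 0.07 in iMNs (interval -0.02 to 0.17) and of 0.13 in i3Ns (interval 0.04 to 0.22). Per kb, STMN1 made up 24.9% of the summed stathmin level in SCR iMNs and 20.9% in SMN-KD iMNs, and 21.6% and 10.7% in i3Ns. STMN4 made up 6.33% and 9.22% in iMNs, and 5.61% and 13.0% in i3Ns. So STMN4 was the smallest of the 4 shares in both SCR groups, and in SMN-KD i3Ns it exceeded both STMN1 and STMN3. The share of STMN2 was 60.2% and 61.5% in iMNs, and 64.4% and 68.1% in i3Ns. The summed level itself was 77384 normalized counts per kb in SCR iMNs and 62836 in SMN-KD iMNs, and 72032 and 61668 in the i3N groups.

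**Figure D3:**
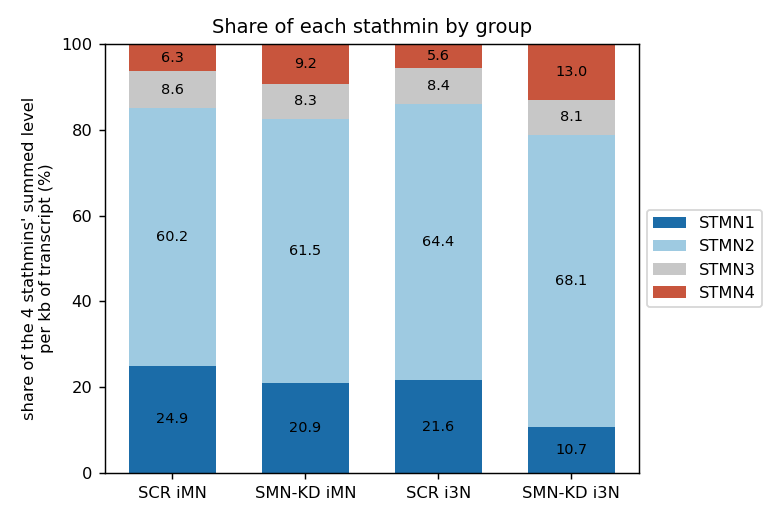
Share of each stathmin in the summed level of the 4 stathmins per kb of transcript (percent), in each of the 4 groups, from derived group means and without error bars. The STMN1 segment is 10.7% in SMN-KD i3Ns against 21.6% in SCR i3Ns, and the STMN4 segment is 13.0% against 5.61%.

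Tau and MAP2 both fell, tau more in iMNs and MAP2 more in i3Ns. MAPT (chromosome 17, 45894527 to 46028334, plus strand for the main identifier, ENSG00000186868) is listed under 3 identifiers, and near-identical copies can divide its reads between them. The main identifier holds only 0.247% of the MAPT counts in iMNs and 0.432% in i3Ns, so its values describe very little of the tau transcript. Summed over the 3, MAPT stood at 79656 normalized counts in SCR and 59407 in SMN-KD iMNs, and at 49372 and 41342 in the i3N groups. This was a fall of 25.4% and of 16.3%. The log2 ratios were -0.42, with an SE of at most 0.035, and -0.26, with an SE of at most 0.028. The identifiers ENSG00000276155 and ENSG00000277956 fell in both cell types, with log2 fold changes of -0.41 and -0.44 in iMNs and of -0.40 and -0.25 in i3Ns. Their mean normalized counts were 38079 and 31281 in iMNs but 1783 and 43377 in i3Ns. An identifier thus does not describe the same part of the MAPT counts in the 2 cell types. The main identifier gave -0.14 ± 0.24 in iMNs (DESeq2 adjusted p = 0.491) and rose in i3Ns by 0.57 ± 0.21 (DESeq2 adjusted p = 0.00760), against the direction of the sum.

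MAP2 (ENSG00000078018, chromosome 2, 209424047 to 209734147, plus strand) had derived means of 115892 and 109624 normalized counts in SCR and SMN-KD iMNs. In i3Ns these were 94091 and 71461. The log2 fold change in iMNs was -0.08 ± 0.026 (DESeq2 adjusted p = 0.00599), the smallest called change among the 12 identifiers, a loss of 5.41%. The fall in i3Ns was 24.1%, or -0.40 ± 0.024 on the log2 scale (DESeq2 adjusted p = 1.60e-62). Among the identifiers with a mean of at least 1000 normalized counts, 38.8% in iMNs and 20.3% in i3Ns fell by as much as MAP2 or more.

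The MAP1 proteins gave the one change of direction. MAP1A (ENSG00000166963, chromosome 15, 43510958 to 43531620, plus strand) fell in iMNs from 44944 to 38110 normalized counts, and it rose in i3Ns from 20380 to 32892. The log2 fold change was -0.24 ± 0.030 in iMNs (DESeq2 adjusted p = 6.36e-15) and 0.69 ± 0.030 in i3Ns (DESeq2 adjusted p = 2.14e-116). The loss was thus 15.2% and the gain 61.4%. MAP1B (ENSG00000131711, chromosome 5, 72107234 to 72209565, plus strand) fell in iMNs by 20.9%, from 397900 to 314742 normalized counts, with a log2 fold change of -0.34 ± 0.030 (DESeq2 adjusted p = 8.31e-27). In i3Ns it was 520051 in SCR and 518299 in SMN-KD. That log2 fold change, -0.00 ± 0.030, was not called (DESeq2 adjusted p = 0.915), and its 95% interval ran from -0.06 to 0.05, so that a loss as large as that in iMNs lies outside it. The ratio of MAP1A to MAP1B counts, not corrected for length, was 0.113 and 0.121 in SCR and SMN-KD iMNs, and 0.0392 and 0.0635 in i3Ns. The log2 fold change of MAP1A exceeded that of MAP1B by 0.10 in iMNs (95% interval 0.02 to 0.18) and by 0.70 in i3Ns (0.61 to 0.78).

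The doublecortin pair fell in both cell types, DCX more in iMNs and DCLK1 more in i3Ns. DCX (ENSG00000077279, chromosome X, 111293779 to 111412429, minus strand) had derived means of 222182 and 144152 normalized counts in SCR and SMN-KD iMNs, and of 122195 and 90893 in i3Ns. The log2 fold changes were -0.62 ± 0.027 (DESeq2 adjusted p = 2.25e-116) and -0.43 ± 0.027 (DESeq2 adjusted p = 1.80e-53), or losses of 35.1% and 25.6%. The fall of DCX was the largest among the 12 identifiers in iMNs. DCLK1 (ENSG00000133083, chromosome 13, 35768652 to 36131382, minus strand) stood at 27974 normalized counts in SCR and 19401 in SMN-KD iMNs, and at 31722 and 16554 in the i3N groups. Its log2 fold changes were -0.53 ± 0.027 (DESeq2 adjusted p = 1.19e-86) and -0.94 ± 0.043 (DESeq2 adjusted p = 7.15e-106), the latter close to the DEG threshold, with a 95% interval from -1.02 to -0.85. In i3Ns the log2 fold change of DCLK1 minus that of DCX was -0.51 (95% interval -0.61 to -0.41).

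An shRNA can also lower transcripts whose 3′-UTR matches the seed of its guide strand, so the 3′-UTRs of the MANE Select transcripts were searched on the transcript strand for the 7-base complements of guide bases 2 to 8 and 3 to 9. For the SMN shRNA these are CTAATAA and GCTAATA, and for the scrambled shRNA CTAGTAA and ACTAGTA. The motifs of a pair overlap by 6 bases, and both registers were searched because the first base of the processed guide is not given in the sources used here. The matches of the 10 genes are shown because 2 of the larger falls carry one, with the matching bases in capitals, the sequence 5′ to 3′ on the transcript strand as read from GRCh38 and 11 bases on either side. The DCX match is in exon 7 of 7, at chrX:111295655-111295661 on the minus strand, that of DCLK1 in exon 17 of 17, at chr13:35774323-35774329 on the minus strand, and that of MAPT in exon 13 of 13, at chr17:46024396-46024402 on the plus strand.
DCX, SMN shRNA guide bases 2 to 8: tcagctaaataCTAATAAttgattttgtt
DCLK1, SMN shRNA guide bases 3 to 9: ggtaatttgctGCTAATAgagtcctcaaa
MAPT, scrambled shRNA guide bases 2 to 8: tgatgggtgggCTAGTAAtaaaatattta

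The other 7 genes held none of the 4 motifs, STMN1 with its 3′-UTR of 900 bases included, and neither did the 3′-UTRs of their other annotated protein-coding transcripts. STMN1, whose fall in i3Ns was the largest among the 12 identifiers, is among these 7. Only these motifs in 3′-UTRs were searched, and the part of either shRNA in the fall of STMN1 was not tested. Of 11854 genes with a 3′-UTR in iMNs, 20.0% held an SMN guide motif and 12.2% a scrambled guide motif. Matches to either guide were no more frequent than this among the genes read here. The median log2 fold change of the genes that held an SMN guide motif was -0.17, against 0.04 without one, in iMNs, and -0.21, against 0.05, in i3Ns. Genes with a scrambled guide motif had medians of 0.08 in iMNs and 0.19 in i3Ns, against -0.00 and -0.01 without one. The 3′-UTRs with an SMN guide motif were longer, with a median of 3116 bases against 1206 in iMNs, and so were those with a scrambled guide motif, at 3687.5 against 1295.5 bases. Those of DCX and DCLK1 are longer than these medians, at 7908 and 5883 bases. The part of these matches in the falls of DCX and DCLK1 was not tested, and a match is not a measured site of action.

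The effect of knockdown differed between the cell types for most of the 10 genes. The difference of the log2 fold changes, i3Ns minus iMNs, was tested with a Wald z over the 16093 shared identifiers, and 8 of the 12 passed an adjusted p under 0.01. Of these 3 were lower and 5 were higher in i3Ns, against a background of 18.1% lower and 16.0% higher. Among the 6960 identifiers with a mean of at least 1000 in both tables, 22.1% were lower and 24.6% were higher. MAP1A had the largest difference, 0.93 ± 0.042 (SE, adjusted p = 3.56e-105), and is the only one of the 10 genes called in opposite directions. STMN4 rose by 0.75 ± 0.060 more in i3Ns (adjusted p = 3.20e-34). STMN1 fell further in i3Ns, with a difference of -0.68 ± 0.054 (adjusted p = 8.88e-35).

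The remaining differences were smaller. DCLK1 and MAP2 also fell further in i3Ns, with differences of -0.41 ± 0.050 (adjusted p = 5.31e-15) and -0.32 ± 0.035 (adjusted p = 4.35e-18). MAP1B was higher in i3Ns by 0.33 ± 0.042 (adjusted p = 3.34e-14), and DCX was higher by 0.20 ± 0.039 (adjusted p = 1.98e-06), that is, these 2 genes lost more in iMNs. For MAPT the identifier ENSG00000277956 was higher in i3Ns by 0.19 ± 0.046 (adjusted p = 0.000135), and the summed counts were higher by 0.17 with an SE of at most 0.045. The identifiers ENSG00000276155 and ENSG00000186868 did not pass, with adjusted p-values of 0.934 and 0.0568. STMN2 and STMN3 did not pass either. Their differences were 0.12, with a 95% interval from 0.03 to 0.22 and an adjusted p of 0.0268, and 0.07, with an interval from -0.02 to 0.16 and an adjusted p of 0.215. Relatives did not always share a direction of this difference: STMN1 and STMN4 lay on opposite sides of 0, as did DCLK1 and DCX, while MAP1A and MAP1B were both higher in i3Ns.

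**Figure D4:**
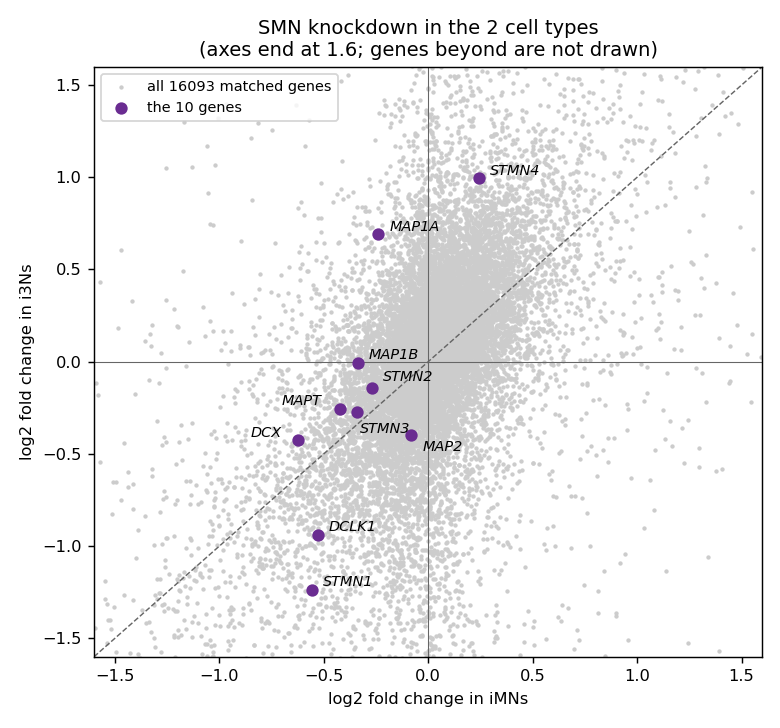
Log2 fold change in iMNs (x) against i3Ns (y) for the identifiers of both tables (grey) and the 10 genes (purple, MAPT summed), with the dashed line at equal change. MAP1A lies at the upper left, STMN4 above the line on the right, and STMN1 and DCLK1 below the line on the left.

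Other genes changed in the same comparisons, and whether they varied together with the 10 genes cannot be read without values per library. For the counts below, 18.7% of all identifiers fell and 17.1% rose in iMNs, and 25.7% and 22.8% in i3Ns. Among identifiers with a mean of at least 1000 these shares were 28.7% and 25.0% in iMNs, and 35.3% and 35.4% in i3Ns. Pan-neuronal genes were not constant: 7 of 10 fell and 3 rose in iMNs, and 6 fell and 1 rose in i3Ns, among them the growth cone protein GAP43, with log2 fold changes of -0.61 ± 0.036 and -1.29 ± 0.035, and SYT1, a synaptic vesicle protein, with 0.49 ± 0.031 and 0.67 ± 0.037. Mesenchymal markers fell in i3Ns, 6 of 8 with 1 rise, from a summed 12777 to 2108 normalized counts. In iMNs 5 of 7 rose and 0 fell, from 2167 to 3736. Progenitor markers fell in i3Ns for 5 of 8, from a summed 77735 to 55902, and in iMNs for 1 of 8. Most of the sum in i3Ns was VIM, from 45033 to 28108, and NES, from 31764 to 27560 normalized counts. SOX2, HES5 and FABP7 were not called there. Of 4 glial markers listed in i3Ns 2 fell, 0 of 3 were called in iMNs by DESeq2, and GFAP, AQP4 and SOX10 were listed in neither. The pluripotency genes LIN28A and DPPA4 rose in i3Ns, LIN28A from 1559 to 6872 and DPPA4 from 43.9 to 341 normalized counts, while POU5F1 and NANOG were near the floor, at SCR means of 13.7 and 5.96. Of the motor neuron markers 4 fell and 1 rose in iMNs, and 5 fell and 1 rose in i3Ns. Of the glutamatergic markers 2 of 6 fell in iMNs and 4 of 7 in i3Ns. The part of these cells in the values of the 10 genes was not tested.

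Around the 10 genes, 103 further microtubule genes were read from lists by function. Of 101 measured in iMNs 41 fell and 17 rose, with 3 and 1 as DEGs, and of 102 in i3Ns 43 fell and 29 rose, with 9 and 3 as DEGs. Over all identifiers 18.7% fell and 17.1% rose in iMNs, with 2.37% and 0.969% as DEGs, and 25.7% fell and 22.8% rose in i3Ns, with 9.53% and 4.23% as DEGs. The DEG counts of the lists were thus near these shares of all identifiers. Among identifiers with a mean of at least 1000, 2.17% fell and 0.608% rose as DEGs in iMNs, and 6.22% and 3.01% in i3Ns. By the adjusted p alone the shares of these strong transcripts that fell were 28.7% and 35.3%, and those that rose 25.0% and 35.4%. The median log2 fold changes of the listed genes were -0.10 and -0.13, beside 0.00 and 0.01 over all identifiers. The end-binding and plus-end proteins, which ride on growing ends, fell in most cases: 11 of 15 fell and 0 rose in iMNs, and 11 fell and 2 rose in i3Ns, with medians of -0.22 and -0.36. Other lattice-binding proteins and doublecortins fell for 11 of 22 in iMNs, where 4 rose, and for 13 of 22 in i3Ns, where 5 rose, with medians of -0.13 and -0.53. Differences between the lists were not tested.

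DPYSL2 (CRMP2), a tubulin-binding protein of axon growth, fell as a DEG in both cell types, with 101418 normalized counts in SCR against 42107 in SMN-KD iMNs, and 136130 against 44338 in the i3N groups. Its log2 fold changes were -1.27 ± 0.042 and -1.62 ± 0.031, beyond those of every one of the 12 identifiers in the same cell type. MAP9, a spindle-associated protein, was the other gene of the lists called as a DEG in both, at -1.11 ± 0.092 and -1.19 ± 0.061. The doublecortin relative DCLK3 showed the largest fall of the lists in i3Ns, -2.72 ± 0.24, from 278 to 42.1 normalized counts, and gave -0.04 ± 0.22 in iMNs, where its mean was below 100. TPPP, which promotes tubulin polymerization, rose in both, by 0.45 ± 0.041 in iMNs and by 1.12 ± 0.040 in i3Ns.

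**Figure D5:**
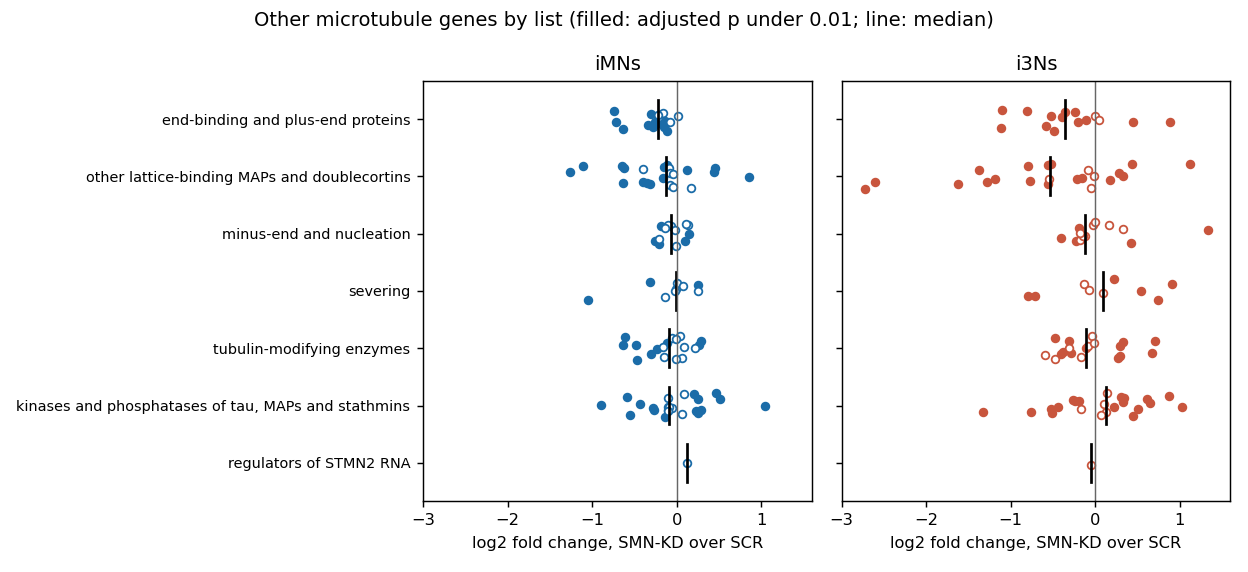
Log2 fold change of the further microtubule genes by list, in iMNs (left) and i3Ns (right), 1 point a gene, filled where the adjusted p was under 0.01, with a line at each median. The end-binding list has its median at -0.22 in iMNs and -0.36 in i3Ns, and the list of kinases and phosphatases has points on both sides of 0.

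The remaining lists were mixed. Of the 23 kinases and phosphatases that act on tau, MAPs and stathmins, 7 fell and 8 rose in iMNs and 8 fell and 10 rose in i3Ns, shares of falls near those of the strong transcripts. CDK5R1, the activator of the tau and DCX kinase CDK5, fell by 1.33 ± 0.043 on the log2 scale in i3Ns and by 0.44 ± 0.039 in iMNs. PPP2R2B, a regulatory subunit of the phosphatase PP2A, rose by 1.03 ± 0.049 in i3Ns and by 0.25 ± 0.041 in iMNs. CAMK2A rose by 1.05 ± 0.11 in iMNs, from 330 to 682 normalized counts, and was at 15.0 and 13.3 in i3Ns. Of the 9 severing enzymes 2 fell and 1 rose in iMNs, and 2 fell and 4 rose in i3Ns. FIGN, a severing ATPase, passed the test in both, with a log2 fold change of -1.05 ± 0.098 in the iMNs but 0.22 ± 0.076 in the i3Ns. Of the 13 minus-end and nucleation genes 3 fell and 2 rose in either cell type, and NEDD1, which targets the nucleating complex, rose by 1.34 ± 0.099 in i3Ns while giving -0.21 ± 0.22 in iMNs. Of the tubulin-modifying enzymes 7 of 18 fell and 2 rose in iMNs, and 6 of 19 fell and 6 rose in i3Ns.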

How the data were processed

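Total RNA of 12 libraries, depleted of ribosomal RNA, had been sequenced as paired reads, 3 libraries in each of 4 groups. The authors trimmed reads with fastp, quantified transcripts with Salmon and ran DESeq2 separately in each cell type. The submitters' processing notes also name STAR and hg38. Versions, annotation and the filter on low counts are not given in the sources used here. Per cell type the authors deposited 1 table, whose signal column is the mean over 6 libraries of counts divided by size factors. Beside it stand the authors' log2 fold change with its standard error, and the deposited p-value with its Benjamini-Hochberg adjusted value. The identifiers of MAPT, SMN1 and SMN2 share reads with near-identical copies.

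With 3 libraries on each side, group means follow from the mean and the fold change. Depth per library is unknown, and precision is that of the authors' standard errors. The fold changes may have been shrunken: over the 11 identifiers of the 10 genes whose mean reached 1000, the quotient of fold change and standard error was 0.987 to 1.03 times the z of the deposited p-value in iMNs and 0.992 to 1.05 times in i3Ns, and shrinkage was stronger for the main MAPT identifier. The difference between cell types was a two-sided Wald z from both fold changes and standard errors, adjusted over all identifiers in both tables, and was tested on simulated data. A count test and a left-out library were not possible on such tables. P-values measure the spread between libraries, which may be technical.

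Positions, transcript lengths and 3′-UTRs came from GENCODE release 44 on GRCh38. For symbols with several identifiers, lists used the one with the highest mean. The genes and lists were chosen with earlier results of these data known. Named were all 10 genes, list genes called as DEGs in both tables, and per table up to 3 list genes with the largest falls and rises among DEGs with a mean of at least 100. GAP43, SYT1, the single markers and TARDBP are named outside that rule, after their values were seen. Alternatives changed the thresholds, centring, filter, standard errors, fold change and identifiers. Python 3.11.15, numpy 2.4.6, pandas 2.3.3 and scipy were used.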

Additional observations from a re-analysis of the deposited data

Results flagged for a closer look

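Of the 12 identifiers of the 10 genes, 8 are listed because the effect of knockdown differed between the cell types by the Wald test of the difference itself. On the log2 scale, i3Ns minus iMNs, these differences were -0.68 for STMN1, 0.75 for STMN4, 0.19 for the MAPT identifier ENSG00000277956, -0.32 for MAP2, 0.93 for MAP1A, 0.33 for MAP1B, 0.20 for DCX and -0.41 for DCLK1. ENSG00000277956 does not hold the same part of the MAPT counts in both cell types. The difference for the summed MAPT counts was 0.17, with an SE of at most 0.045. MAP1A is the gene whose called changes had opposite signs. A search for single libraries far from the others was not possible on tables without values per library.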

How the results depend on the processing

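No paired analysis was possible because the deposited tables carry no column for a replicate, and for the same reason no library could be left out and no other normalization or tool could be run. Of 256 single fold changes, differences and derived levels recomputed under the alternatives, 245 kept their side of the threshold or moved by less than the spread between libraries, 0 reversed, 10 lost their call and 1 gained one. Most alternatives left the fold change itself unchanged, so a reversal was hardly possible under them. The looser threshold of 0.05 could not lose a call. These counts are thus no measure of robustness. The count of DEGs among the 12 identifiers, 0 in iMNs and 1 in i3Ns, became 3 and 5 at an absolute log2 fold change above 0.5, and 11 and 11 with no fold threshold. With doubled standard errors the single rise in iMNs, STMN4, was lost (0 rose), as were the calls of MAP2 in iMNs and, in i3Ns, of STMN2 and of the MAPT identifiers ENSG00000186868 and ENSG00000276155, and the differences between cell types of DCX and ENSG00000277956. MAP2 in iMNs and ENSG00000186868 in i3Ns did not pass an adjusted p under 0.001, and the latter also lost its call when the p was recomputed from the centred fold change. STMN2 passed for the difference at an adjusted p under 0.05. The difference count stayed between 6 and 9 against 8. Of the further microtubule genes, 4 in iMNs and 12 in i3Ns were DEGs, and 58 and 72 passed the adjusted p alone. Centring moved all fold changes by 0.01 in both tables.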
